A study of Mus musculus with 12 samples.

Results

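The 38 genes described here encode proteins of the lysosome and of hydrolase delivery to it. They comprise 8 enzymes of glycosaminoglycan breakdown, 5 of glycoprotein breakdown, 9 enzymes and cofactors of sphingolipid breakdown, 5 hydrolases of glycogen, lipid esters, phosphate or peptides, 2 cholesterol carriers, 7 other membrane proteins and 2 genes of mannose 6-phosphate targeting. The genes were chosen by symbol, as glycosidases, sulfatases, lipid hydrolases and membrane proteins without the cathepsins and the proton pump, from the 23366 gene symbols of the deposited count table. All 38 were present and all 38 passed the filter on low counts. RNA had been sequenced from mouse embryonic fibroblasts (MEFs), connective tissue cells grown from embryos, of strain C57BL/6 at passages 3 to 5. There were 4 groups of 2 libraries: Carm1 knockout cells after 18 h of glucose starvation, Carm1 knockout cells in rich medium, wild-type cells after 18 h of glucose starvation, and wild-type cells in rich medium. Carm1 encodes an arginine methyltransferase that modifies histone H3 and acts as a transcriptional coactivator. Rich medium was DMEM with 10% fetal bovine serum and starvation medium was glucose-free DMEM with 10% dialyzed serum, so dialysis changed together with glucose, and the rich libraries carry the time label 0 h. How the Carm1 allele was made, and whether the replicates were separate cultures, is not given in the labels. The p-values therefore measure the spread between these libraries, which may be technical.

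Lysosomes are acidic organelles in which hydrolases break down glycosaminoglycans, glycoproteins, sphingolipids, glycogen and proteins brought in by endocytosis and autophagy, and loss of single enzymes causes storage disorders that are often studied in cultured fibroblasts. Most soluble hydrolases receive a mannose 6-phosphate tag in the Golgi and are carried to the lysosome by mannose 6-phosphate receptors. Transcription factors of the TFEB family bind a palindrome, the CLEAR element, upstream of many lysosomal genes.

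Sequencing depth lay between 8447014 and 28155431 counted reads. By these totals, without TMM adjustment, 3 counts correspond to 0.355 CPM in the shallowest library (knockout rich replicate 1) and 0.107 CPM in the deepest. The CPM of genes are scaled to the TMM-adjusted library size and so differ slightly in scale. Carm1 stood at 53.9 and 58.6 CPM in starved knockout libraries and 48.1 and 70.8 CPM in rich knockout libraries, against 176 and 164 CPM in starved and 207 and 204 CPM in rich wild-type libraries. The 10 fibroblast markers summed to 7835 to 8051 CPM in starved and 7279 to 10441 CPM in rich knockout cells, against 5002 to 5407 CPM in starved and 8104 to 8116 CPM in rich wild-type cells, and the part of the lower sum of starved wild-type cells in the starvation results was not tested. Of these markers 7 had at least 1 CPM in every library, among them Col1a1, with 636 to 1206 CPM in knockout and 1400.2 to 2807 CPM in wild-type libraries. The others were near 0 in wild-type cells: Dcn had 1172 to 1954 CPM in knockout and 0.372 to 0.762 CPM in wild-type libraries, Thy1 had 124 to 180.4 CPM in knockout and 0.0465 to 0.214 CPM in wild-type libraries, and Lum had 0.775 to 4.27 CPM in knockout libraries and 0 counts in wild-type libraries. The summed level of 12 macrophage markers was 72.7 to 74.5 CPM in starved and 47.9 to 52.2 CPM in rich knockout cells, against 2.91 to 3.63 CPM in starved and 3.35 to 4.0 CPM in rich wild-type cells. Mrc1 and Cd14 made up most of it, while Tyrobp and C1qa had 0 counts in all 8 libraries. The 6 endothelial markers summed to 242 to 245 CPM in starved and 132 to 158 CPM in rich knockout cells, against 3.87 to 5.02 CPM in starved and 2.09 to 2.28 CPM in rich wild-type cells. Cdh5 made up most of that sum in the knockout, where Tie1 and Cldn5 had 0 counts, and Kdr was the lower in the knockout, at 0 to 0.0861 CPM, against 1.78 to 4.50 CPM in the wild type. The 6 epithelial markers summed to at most 3.91 CPM in any library. In the knockout the inactive X transcript Xist had 0 to 6 counts, against 18657 to 23751 counts in the wild type, while every library had 0 counts for 4 genes of the Y chromosome (Uty, Kdm5d, Ddx3y and Eif2s3y). The part of these marker and Xist differences in the results between genotypes was not tested. In bulk RNA, fewer cells of a type and less RNA per cell cannot be told apart.

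For the lysosomal genes the 2 replicates were alike in each group except the rich knockout group. The log2 ratio of replicate 1 to replicate 2 had an SD over the 38 genes of 0.14 in starved knockout, 0.70 in rich knockout, 0.13 in starved wild-type and 0.11 in rich wild-type cells. In the rich knockout pair 19 of 38 genes differed by more than 1.5-fold and 6 by more than 2-fold, and 0 did so in the other groups. For Lamp2, a heavily glycosylated protein of the lysosomal membrane that also takes part in chaperone-mediated autophagy, these libraries had 622 and 249 CPM. Gaa, the acid glucosidase that degrades glycogen, had 60.5 and 174 CPM in the same libraries. Replicate 1 was thus the higher for Lamp2 and the lower for Gaa. All 4 groups share an estimate of the spread, so this pair enters every test below, and counts without each of its libraries are given.

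**Figure D1:**
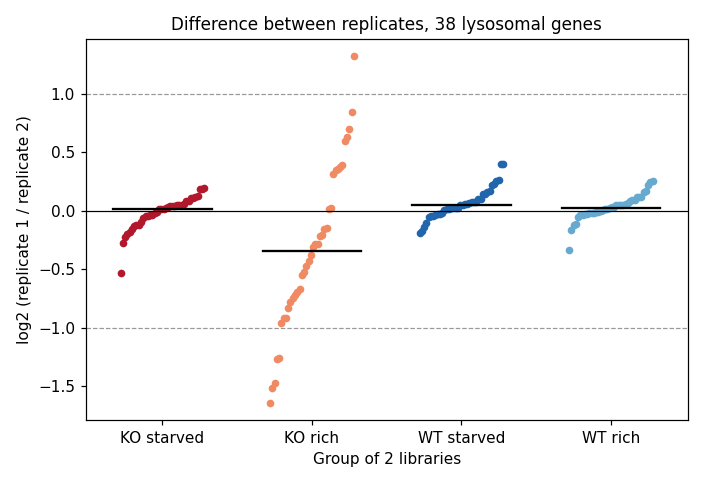
The log2 ratio of replicate 1 over replicate 2 for each of the 38 lysosomal genes (points) in each group of 2 libraries, with the median as a bar and dashed lines at a 2-fold difference. The rich knockout pair ranges from -1.64 to 1.32, while no gene in the other groups passes a dashed line.

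Across the 4 groups the summed level of the 38 genes stayed between 4005 and 4983 CPM per library. It was 4087 and 4005 CPM in starved knockout libraries and 4124 and 4225 CPM in rich knockout libraries. Starved wild-type libraries had 4983 and 4925 CPM and rich wild-type libraries 4319 and 4236 CPM. The starved wild-type pair was thus the highest. Much of this sum came from Lamp1, the major glycoprotein of the lysosomal membrane, and Psap, the precursor of the saposins that present sphingolipids to hydrolases.

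**Figure D2:**
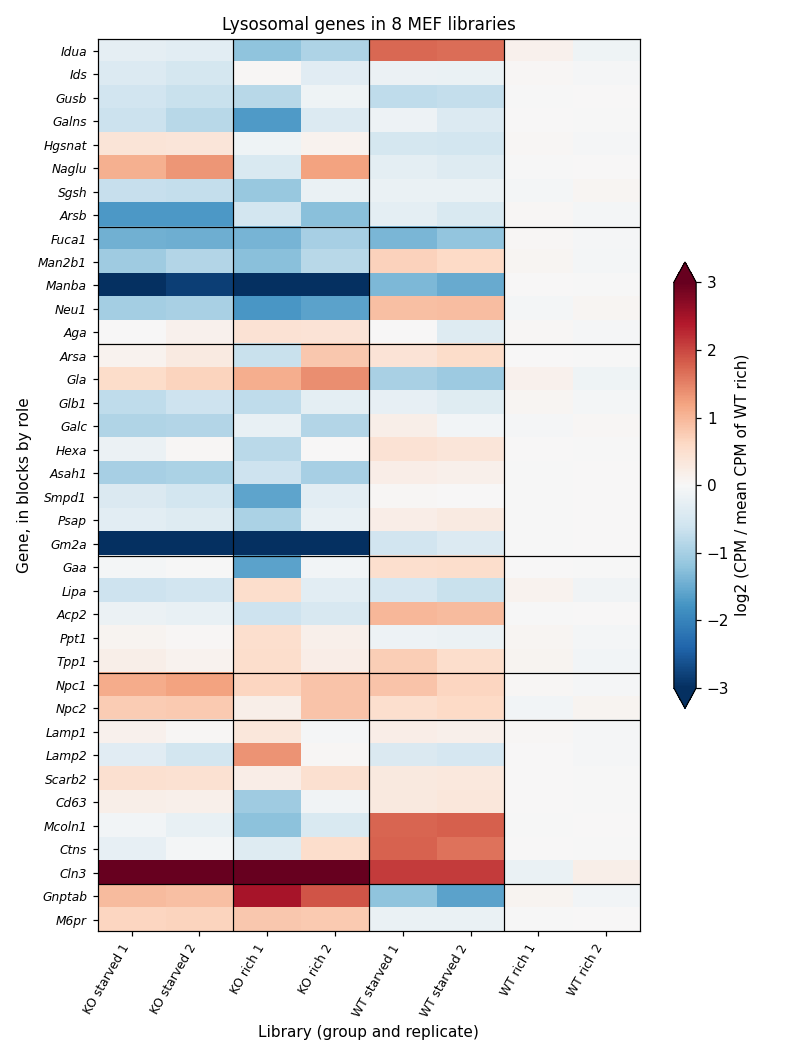
The level of each lysosomal gene (rows, in blocks by role) in each library (columns), as the log2 ratio of its CPM to the mean of the rich wild-type libraries, with colours saturating at 3 in either direction. Gm2a and Manba are low and Cln3 high in all 4 knockout libraries, and Idua, Mcoln1 and Ctns are high in the starved wild-type libraries alone among the 4 groups.

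In wild-type cells starvation moved lysosomal genes in both directions. Starved cells had more RNA of the membrane proteins Cln3, Mcoln1 and Ctns, of the hydrolases Idua, Acp2, Neu1, Man2b1 and Tpp1, and of the cholesterol carrier Npc1, and less of Manba, Gnptab, Fuca1, Gla, Gusb and Hgsnat. Of the 38 genes 15 passed the test, where 32.8% of all genes did: 9 rose, 6 fell and 23 did not pass (edgeR quasi-likelihood test, Benjamini-Hochberg adjusted over 13882 genes, threshold 0.05). Among all genes tested 14.8% rose and 18.0% fell, against 23.7% and 15.8% of the lysosomal genes. The median log2 fold change was 0.03 for the lysosomal genes and 0.00 for all genes.

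Among the membrane proteins 3 of 7 rose. Mcoln1, the TRPML1 channel that releases calcium from the lysosome, had 125 and 128 CPM in starved libraries, against 37.0 and 37.3 CPM in rich libraries. Both starved libraries lay above both rich ones, and the log2 fold change was 1.77 ± 0.23, adjusted p = 0.00202. Ctns, which exports cystine from the lysosome, had 50.2 and 45.4 CPM in starved and 14.9 and 14.6 CPM in rich libraries. The groups were again apart (1.69 ± 0.28, adjusted p = 0.00451). Cln3, a membrane protein lost in juvenile neuronal ceroid lipofuscinosis, was the scarcest of these, with 3.67 and 3.64 CPM in starved and 0.744 and 0.963 CPM in rich libraries. Its groups did not overlap (2.08 ± 0.27, adjusted p = 0.00192). Cln3 shares its locus with Apobr, a lipoprotein receptor gene that stood at 68.5 and 70.4 CPM in starved and 14.1 and 15.7 CPM in rich wild-type libraries, and reads from overlapping genes cannot be told apart without strand. The other 4 membrane proteins, Lamp1, Lamp2, Scarb2 and Cd63, did not pass, with log2 fold changes from -0.47 for Lamp2 to 0.31 for the tetraspanin Cd63. Of the cholesterol carriers, Npc1, which moves cholesterol out through the membrane, had 99.96 and 85.4 CPM in starved and 56.2 and 53.6 CPM in rich libraries. These groups too were apart (0.76 ± 0.14, adjusted p = 0.00708), while its soluble partner Npc2 did not pass (0.55 ± 0.22, adjusted p = 0.092). Npc1 overlaps the protein-coding gene Rmc1, which was not counted under that symbol, so the level of Rmc1 could not be set beside it.

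The promoters of Cln3, Mcoln1 and Gla are shown because, among the 32 lysosomal genes with a RefSeq promoter sequence (250 bases before to 50 after the start, build GRCm38.p6), these 3 held TCACGTGA, the core of the CLEAR element, whose full form has a G before this core and a C after it. Lamp1 is added, after the motif counts were seen, as the gene with the most copies of the shorter E-box CACGTG. Capitals mark CACGTG and, where present, its extension to TCACGTGA or to the full CLEAR element. The motifs contain each other, and each equals its own reverse complement, so that a search of 1 strand covers both. Sequences run 5′ to 3′ on the strand of the gene. Cln3 lies on the minus strand at chr7:126583187-126583486, Mcoln1 on the plus strand at chr8:3500269-3500568, Gla on the minus strand at chrX:134600956-134601255, and Lamp1 on the plus strand at chr8:13158911-13159210.
Cln3: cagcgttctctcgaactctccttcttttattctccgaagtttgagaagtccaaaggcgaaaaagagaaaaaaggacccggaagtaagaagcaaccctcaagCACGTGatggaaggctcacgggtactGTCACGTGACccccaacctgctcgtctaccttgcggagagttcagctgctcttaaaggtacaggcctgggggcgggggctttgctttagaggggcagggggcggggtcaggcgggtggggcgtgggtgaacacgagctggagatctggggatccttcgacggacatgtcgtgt
Mcoln1: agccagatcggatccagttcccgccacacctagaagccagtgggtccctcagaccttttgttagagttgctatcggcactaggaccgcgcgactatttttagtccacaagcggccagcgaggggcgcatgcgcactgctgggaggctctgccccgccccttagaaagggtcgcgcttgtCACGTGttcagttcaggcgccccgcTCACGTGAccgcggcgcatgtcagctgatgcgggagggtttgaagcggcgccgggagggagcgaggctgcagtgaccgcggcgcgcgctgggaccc
Gla: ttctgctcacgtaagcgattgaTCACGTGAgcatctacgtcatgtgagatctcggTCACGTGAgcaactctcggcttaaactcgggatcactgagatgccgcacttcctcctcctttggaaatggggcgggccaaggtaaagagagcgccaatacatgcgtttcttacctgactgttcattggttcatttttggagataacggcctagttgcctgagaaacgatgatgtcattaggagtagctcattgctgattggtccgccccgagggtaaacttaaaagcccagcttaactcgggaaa
Lamp1: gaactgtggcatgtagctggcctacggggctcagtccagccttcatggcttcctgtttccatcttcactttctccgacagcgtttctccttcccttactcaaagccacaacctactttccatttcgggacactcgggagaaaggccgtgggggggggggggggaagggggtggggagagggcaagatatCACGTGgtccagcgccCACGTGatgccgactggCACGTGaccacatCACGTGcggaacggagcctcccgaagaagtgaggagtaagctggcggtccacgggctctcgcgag
In Cln3 the full CLEAR element began 123 bases before the start and a further CACGTG 149 bases before it, in 1 of its 2 listed promoters. In Mcoln1 TCACGTGA began 46 bases and a further CACGTG 71 bases before the start. Gla held TCACGTGA at 228 and at 195 bases before the start, and the 4 copies of CACGTG in Lamp1 began 61, 45, 28 and 15 bases before it. CACGTG was found in 9 of the 32 lysosomal genes (28.1%), in 11.5% of the 10088 tested genes with a promoter sequence and in 8.09% of all 27025 genes with one. TCACGTGA was found in 3 lysosomal genes (9.38%), in 2.13% of tested genes and in 1.12% of all genes. The full CLEAR element was found in 1 lysosomal gene (3.13%), in 0.783% of tested genes and in 0.370% of all genes. The genes with a match differed in direction in starved wild-type cells: Cln3 and Mcoln1 rose, Gla fell, and Lamp1 did not pass (0.18 ± 0.15, adjusted p = 0.392). Of the 9 genes with CACGTG, 2 rose, 1 fell and 6 did not pass.

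Enzymes of glycosaminoglycan breakdown gave 1 rise and 2 falls among 8 in starved wild-type cells. Idua, the iduronidase that acts on heparan and dermatan sulfate, had 15.1 and 14.5 CPM in starved and 4.97 and 4.17 CPM in rich libraries. Starved libraries were the higher (1.70 ± 0.19, adjusted p = 0.00118). Idua overlaps Dgkq, a diacylglycerol kinase gene with 31.0 and 33.2 CPM in starved and 23.1 and 20.5 CPM in rich wild-type libraries, and Slc26a1, which was at most 1.24 CPM in any wild-type library. The glucuronidase Gusb had 37.7 and 38.6 CPM in starved and 63.3 and 64.1 CPM in rich libraries. Hgsnat, which acetylates the end of heparan sulfate chains, had 23.4 and 23.0 CPM in starved and 34.3 and 33.2 CPM in rich libraries. Both were lower in each starved library than in either rich library (-0.74 ± 0.22, adjusted p = 0.0418 for Gusb and -0.54 ± 0.14, adjusted p = 0.0239 for Hgsnat). The sulfatases Ids, Galns, Sgsh and Arsb and the glucosaminidase Naglu did not pass. All 5 had both starved libraries below both rich ones, with log2 fold changes from -0.37 for Arsb to -0.19 for Ids. Over the 38 genes the starved libraries lay above the rich ones for 18 and below them for 17, where 41.0% and 40.8% of all genes did so.

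Glycoprotein enzymes split 2 against 2 among 5. The sialidase Neu1 had 65.7 and 66.8 CPM in starved and 33.6 and 36.2 CPM in rich wild-type libraries (0.92 ± 0.14, adjusted p = 0.00295). The mannosidase Man2b1 had 119 and 112 CPM in starved and 77.0 and 70.8 CPM in rich libraries (0.65 ± 0.17, adjusted p = 0.0258). Both genes were higher in each starved library. In the other direction, the fucosidase Fuca1 had 21.4 and 24.5 CPM in starved and 56.7 and 54.6 CPM in rich libraries (-1.28 ± 0.17, adjusted p = 0.00214). Manba, the mannosidase that removes beta-linked mannose, had 4.78 and 4.33 CPM in starved and 12.3 and 12.2 CPM in rich libraries (-1.43 ± 0.24, adjusted p = 0.00508). For both the starved pair lay well below the rich pair, while the aspartylglucosaminidase Aga had overlapping groups (-0.17 ± 0.18).

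Sphingolipid enzymes and their cofactors gave 1 fall and 0 rises among 9. That fall was in Gla, the galactosidase whose loss causes Fabry disease, which had 7.85 and 7.31 CPM in starved and 16.9 and 14.2 CPM in rich libraries. The starved libraries were the lower (-1.03 ± 0.18, adjusted p = 0.00605). The other 8, namely Arsa, Glb1, Galc, Hexa, Asah1, Smpd1, Psap and Gm2a, ran from -0.49 for the activator of ganglioside GM2 breakdown, Gm2a, to 0.47 for Arsa, which removes sulfate from sulfatide. Among the hydrolases of glycogen, lipid esters, phosphate and peptides, 2 of 5 rose. Acp2, the lysosomal acid phosphatase, had 126 and 121 CPM in starved and 62.2 and 63.4 CPM in rich libraries (0.97 ± 0.12, adjusted p = 0.00159). Acp2 overlaps Ddb2, a DNA damage binding protein gene with 35.4 and 36.2 CPM in starved and 19.2 and 20.6 CPM in rich wild-type libraries, and Nr1h3, which was at most 1.49 CPM in them. The tripeptidyl peptidase Tpp1 had 206 and 178 CPM in starved and 129.7 and 116 CPM in rich libraries, with the starved pair above (0.64 ± 0.16, adjusted p = 0.0191). The acid lipase Lipa (-0.58 ± 0.26), Gaa (0.52 ± 0.40) and the thioesterase Ppt1 (-0.16 ± 0.15) did not pass.

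Of the targeting genes 1 of 2 fell. Gnptab, which encodes the catalytic subunits of the enzyme that starts the mannose 6-phosphate tag, had 19.7 and 14.9 CPM in starved and 48.2 and 42.9 CPM in rich wild-type libraries. It was lower in both starved libraries (-1.40 ± 0.23, adjusted p = 0.00453), and the cation-dependent receptor M6pr did not pass (-0.20 ± 0.11, adjusted p = 0.204). Among related lysosomal genes, 8 of 17 proton pump genes rose and 0 fell, 2 of 11 cathepsins and related proteases rose and 0 fell, 4 of 14 further enzymes rose and 1 fell, and 10 of 20 further targeting and membrane genes rose and 0 fell. They included Slc17a5, the sialic acid exporter (1.58 ± 0.19), and Nagpa, which uncovers the mannose 6-phosphate tag (1.33 ± 0.15). Of the 4 TFEB family genes Mitf rose (1.33 ± 0.27, adjusted p = 0.0102), and Tfeb did not pass (-1.41 ± 0.54, adjusted p = 0.0836).

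Without replicate 1 or replicate 2 of the rich knockout group, 35 or 34 of the 38 lysosomal genes passed for wild-type starvation, 18 of them higher in either fit and 17 or 16 lower, where 66.8% or 67.2% of all genes passed. Fewer lysosomal genes passed without any 1 wild-type library, and fewer of all genes did too. The calls of Gusb, Hgsnat and Man2b1 were lost without any library outside the rich knockout pair, that of Tpp1 without any of these except starved knockout replicate 2, that of Gla without either starved or the first rich wild-type library, that of Npc1 without either rich or the first starved wild-type library, that of Ctns without rich wild-type replicate 2, and those of Manba and Gnptab without starved wild-type replicate 2. The calls of Cln3, Mcoln1, Idua, Acp2, Neu1 and Fuca1 held without any 1 library.

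**Figure D3:**
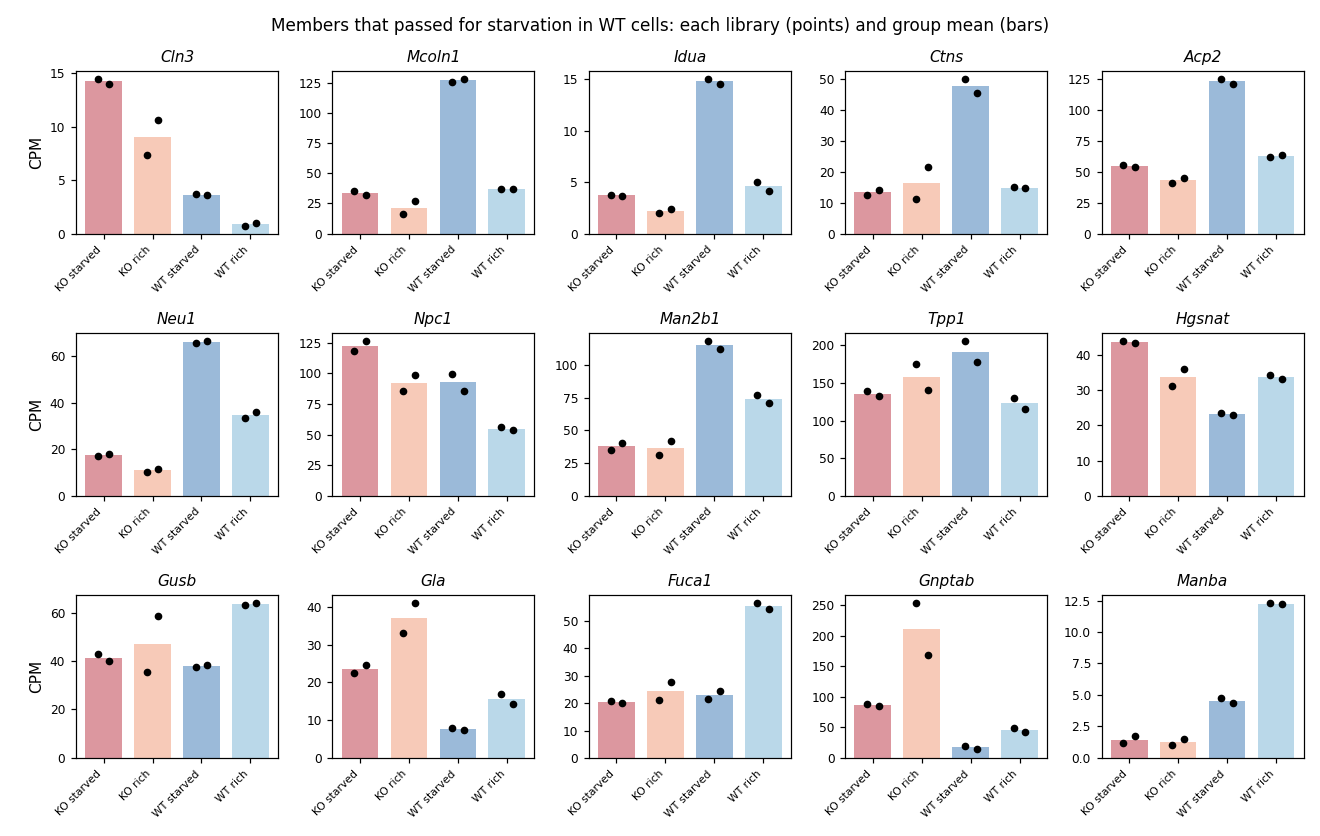
CPM of the 15 lysosomal genes that passed for starvation in wild-type cells, in each library (points) with the group mean (bars, from 0), ordered from the largest rise to the largest fall. In the panels of Mcoln1, Idua and Ctns the starved wild-type pair stands above all other libraries, and in those of Gla, Gnptab and Manba the starved wild-type pair lies below the rich wild-type pair.

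In Carm1 knockout cells 1 lysosomal gene rose after starvation, Neu1, and 3 fell, Gnptab, Arsb and Gla, while 34 of 38 did not pass. Over all genes 8.44% rose and 9.77% fell, against 2.63% and 7.89% of the lysosomal genes. The median log2 fold change was -0.09 for these genes and 0.00 for all genes. Neu1 had 17.2 and 17.9 CPM in starved and 10.3 and 11.5 CPM in rich knockout libraries. The groups did not overlap (0.68 ± 0.14, adjusted p = 0.0199). Gnptab had 88.6 and 85.5 CPM in starved and 254 and 168 CPM in rich libraries, the largest of the 3 falls (-1.27 ± 0.23, adjusted p = 0.011). Arsb, the sulfatase of dermatan and chondroitin sulfate, had 23.4 and 23.1 CPM in starved and 52.5 and 32.3 CPM in rich libraries (-0.86 ± 0.23, adjusted p = 0.0415). Gla had 22.6 and 24.6 CPM in starved and 33.1 and 41.1 CPM in rich libraries (-0.66 ± 0.18, adjusted p = 0.0443). All 3 were lower in each starved library than in either rich library.

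Several genes that rose in starved wild-type cells did not pass in the knockout, though both starved libraries lay above both rich ones. Mcoln1 had 34.9 and 31.9 CPM in starved and 15.8 and 27.0 CPM in rich knockout libraries (0.62 ± 0.23, adjusted p = 0.109). Idua had 3.77 and 3.66 CPM in starved and 1.97 and 2.41 CPM in rich libraries (0.73 ± 0.22, adjusted p = 0.0619). Cln3 had 14.5 and 14.0 CPM in starved and 7.38 and 10.7 CPM in rich libraries (0.64 ± 0.23, adjusted p = 0.093). For Idua and Cln3 the adjusted p was closer to the threshold than for Mcoln1. Acp2 (0.34 ± 0.12, adjusted p = 0.0935) and Npc1 (0.41 ± 0.14, adjusted p = 0.0837) had the same order of libraries. By contrast, Ctns had 12.5 and 14.2 CPM in starved libraries, within the 11.3 and 21.4 CPM of the rich ones (-0.32 ± 0.28, adjusted p = 0.463). Lamp2 had 191 and 167 CPM in starved libraries, against 622 and 249 CPM in rich libraries, and missed the threshold (-1.28 ± 0.37, adjusted p = 0.054). In all, 9 lysosomal genes were higher and 12 lower in both starved libraries than in both rich ones, where 28.7% and 26.6% of all genes were. Of the related lists, 5 of 17 proton pump genes rose and 0 fell, 0 of 11 cathepsins and related proteases rose and 1 fell, 0 of 14 further enzymes passed, 1 of 20 further targeting and membrane genes rose and 0 fell, and 0 of 4 TFEB family genes passed.

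These counts depended on the rich knockout libraries. Without replicate 1 of that group 8 lysosomal genes rose and 12 fell, and without replicate 2 the counts were 19 and 11, where 25.4% of all genes rose and 24.4% fell without replicate 1, and 32.9% rose and 26.2% fell without replicate 2. The log2 fold change of Arsb was -0.45 without replicate 1 and -1.17 without replicate 2, and that of Gaa, which did not pass in the fit of 8 libraries, was 0.06 and 1.57. The calls of the edgeR fit of 8 libraries were all lost without either starved knockout library. Without any 1 wild-type library the call of Gnptab alone held. Fewer of all genes passed in each of these fits as well. A fit of the 4 knockout libraries alone called 0 lysosomal genes and 0 of all genes (5 and 2803 at an unadjusted p under 0.05). DESeq2 on all 8 libraries called 6 lysosomal genes (15.8%), beside 25.7% of all genes.

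The difference between the starvation responses, taken as the knockout response minus the wild-type response, passed for 6 of 38 lysosomal genes, where 13.3% of all genes passed. It was higher in 3 and lower in 3 (7.89% each, against 7.43% and 5.91% of all genes), or higher in 1 and lower in 3 with total-count scaling, with a median of -0.16 on the log2 scale for these genes and 0.00 for all genes. Ctns, Cln3 and Tpp1 had the lower response in knockout cells. For Ctns the response was -0.32 ± 0.28 in knockout and 1.69 ± 0.28 in wild-type cells, a difference of -2.01 ± 0.39, adjusted p = 0.0187. For Cln3 it was 0.64 ± 0.23 in knockout and 2.08 ± 0.27 in wild-type cells (difference -1.44 ± 0.35, adjusted p = 0.0397). Tpp1 had 139.7 and 132 CPM in starved and 176 and 141 CPM in rich knockout libraries, a response of -0.22 ± 0.16, against 0.64 ± 0.16 in wild-type cells (difference -0.86 ± 0.22, adjusted p = 0.0449). The starved libraries of Tpp1 lay above the rich ones in the wild type, while in the knockout its response did not pass, and was -0.03 without rich replicate 1 and -0.36 without rich replicate 2. Hgsnat, Fuca1 and Manba had the higher response in knockout cells. Hgsnat had 44.1 and 43.6 CPM in starved and 31.1 and 36.2 CPM in rich knockout libraries, so that its starved libraries were the higher in the knockout and the lower in the wild type (difference 0.92 ± 0.20, adjusted p = 0.0256). The knockout response of Hgsnat taken alone did not pass (0.38 ± 0.14, adjusted p = 0.105). The response of Fuca1 was -0.28 ± 0.17, which did not pass, in knockout and -1.28 ± 0.17 in wild-type cells (difference 1.00 ± 0.24, adjusted p = 0.0387), and that of Manba was 0.14 ± 0.32, which did not pass, in knockout and -1.43 ± 0.24 in wild-type cells (difference 1.57 ± 0.40, adjusted p = 0.0435). Of these 3, Fuca1 and Manba were already lower in rich knockout than in rich wild-type cells. Manba had only 29 and 40 counts in starved and 8 and 32 counts in rich knockout libraries. The difference for Mcoln1 (-1.15 ± 0.33, adjusted p = 0.0618) and for Idua (-0.97 ± 0.29, adjusted p = 0.0746) did not pass. Among the related lists 0 genes had a higher response in knockout cells, and a lower one was found in 1 of 11 cathepsins and related proteases, 0 of 17 proton pump genes, 2 of 14 further enzymes, 3 of 20 further targeting and membrane genes and 0 of 4 TFEB family genes.

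DESeq2 on all 8 libraries called 8 lysosomal genes for the difference (21.1%), beside 20.7% of all genes. In edgeR each of the 6 differences lost its call when any 1 of the 6 libraries outside the rich knockout pair was left out. Fewer of all genes passed in those fits as well. All 6 kept their call and direction without replicate 1 or replicate 2 of the rich knockout group, where 19 and 28 lysosomal genes passed, beside 49.4% and 56.4% of all genes. Ctns then differed by -2.33 and -1.45, and Tpp1 by -0.66 and -1.01.

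**Figure D4:**
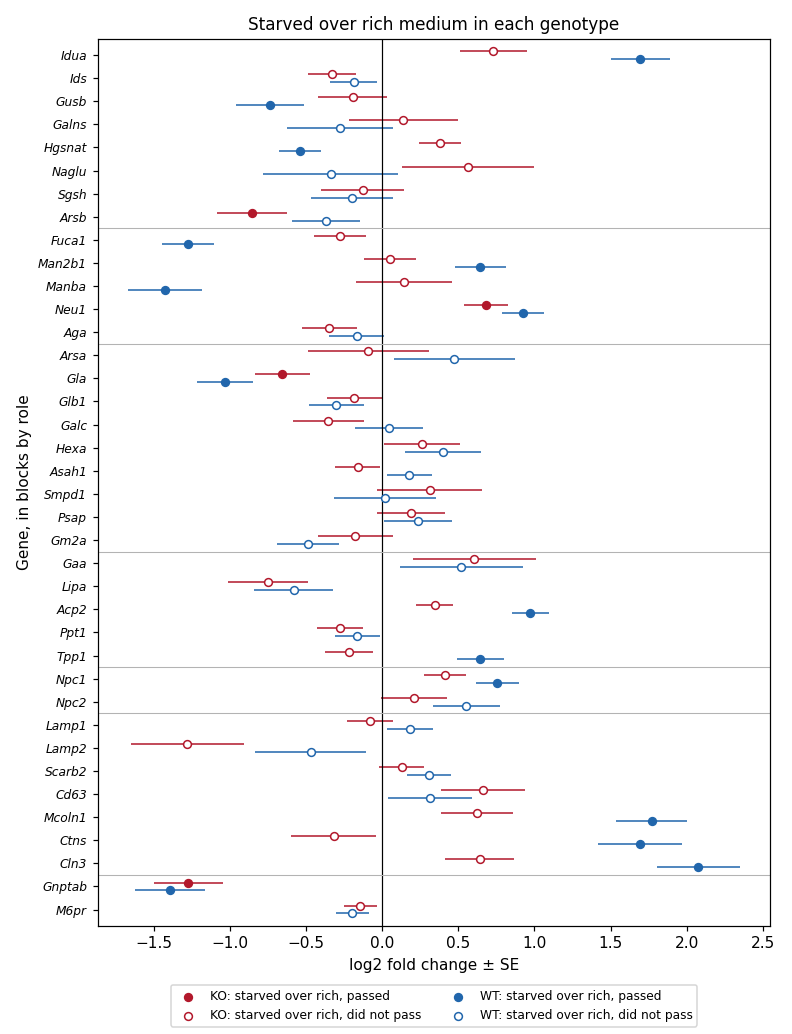
The log2 fold change of starved over rich medium, with its SE, for each lysosomal gene in knockout (red) and wild-type (blue) cells, filled where the adjusted p was under 0.05. Filled points number 4 in knockout and 15 in wild-type cells. The points of several genes lie on opposite sides of 0, among them Ctns, Tpp1, Hgsnat and Manba, none of them filled in the knockout.

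After starvation 19 of 38 lysosomal genes differed between the genotypes, 7 higher and 12 lower in the knockout (18.4% and 31.6%, against 27.8% and 26.8% of all genes). The median log2 fold change of knockout over wild type was -0.34 for these genes and -0.02 for all genes. The glycoprotein enzymes Neu1, Man2b1 and Manba, the membrane proteins Mcoln1 and Ctns, and Gm2a were among those with less RNA in the knockout, and both genes of mannose 6-phosphate targeting had more. The largest difference was in Gm2a, with 2.85 and 2.50 CPM in starved knockout libraries, against 28.3 and 32.0 CPM in starved wild-type libraries. Every knockout library was far below every wild-type library (-3.49 ± 0.23, adjusted p = 3.42e-05). Neu1 had 17.2 and 17.9 CPM in knockout and 65.7 and 66.8 CPM in wild-type libraries (-1.92 ± 0.14, adjusted p = 5.04e-05). Mcoln1 had 34.9 and 31.9 CPM in knockout and 125 and 128 CPM in wild-type libraries (-1.92 ± 0.24, adjusted p = 0.000488). In both genes the pairs stood far apart. Asah1, the acid ceramidase, had 121 and 125 CPM in knockout and 279 and 267 CPM in wild-type libraries (-1.15 ± 0.15, adjusted p = 0.000639). The values for Idua (-1.99 ± 0.20), Ctns (-1.84 ± 0.28), Manba (-1.66 ± 0.27), Man2b1 (-1.61 ± 0.17), Arsb (-1.35 ± 0.23) and Acp2 (-1.18 ± 0.12) also passed as lower. So did the galactosylceramidase Galc (-0.93 ± 0.23, adjusted p = 0.0113) and Tpp1 (-0.50 ± 0.16, adjusted p = 0.0296). Dgkq, which overlaps Idua, was lower too, at 8.18 and 11.3 CPM in starved knockout and 31.0 and 33.2 CPM in starved wild-type libraries. Ddb2, which overlaps Acp2, had 8.54 and 8.39 CPM in starved knockout and 35.4 and 36.2 CPM in starved wild-type libraries. Reads shared with these genes, or with Frg1, which overlaps Asah1, cannot be told apart without strand.

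On the other side, Gnptab had 88.6 and 85.5 CPM in starved knockout libraries, against 19.7 and 14.9 CPM in starved wild-type libraries (2.33 ± 0.24, adjusted p = 0.000204). M6pr had 208 and 210.2 CPM in knockout and 116 and 115 CPM in wild-type libraries (0.86 ± 0.11, adjusted p = 0.00057). For both genes the pairs stood well apart. Cln3 had 14.5 and 14.0 CPM in knockout and 3.67 and 3.64 CPM in wild-type libraries (1.97 ± 0.23, adjusted p = 0.000414). There Apobr, which shares the locus, went the other way, with 18.5 and 18.0 CPM in knockout and 68.5 and 70.4 CPM in wild-type libraries. Naglu, which removes the terminal glucosamine of heparan sulfate, had 23.1 and 27.9 CPM in starved knockout and 9.01 and 8.55 CPM in starved wild-type libraries (1.54 ± 0.44, adjusted p = 0.0219). Both knockout libraries stood well above both wild-type libraries. Gla (1.64 ± 0.18), Hgsnat (0.92 ± 0.14) and Npc1 (0.41 ± 0.14, adjusted p = 0.0419) were also higher in the knockout. The 19 other genes ran from -0.58 for Psap to 0.24 for Aga. Starved knockout libraries lay below starved wild-type libraries for 24 lysosomal genes and above them for 11, where 45.5% and 44.1% of all genes did so. Among the related lists, 11 of 17 proton pump genes were lower and 1 higher, 4 of 11 cathepsins and related proteases were lower and 2 higher, 7 of 14 further enzymes were lower and 1 higher, 10 of 20 further targeting and membrane genes were lower and 1 higher, and 0 of 4 TFEB family genes were lower and 2 higher. Of the last, Mitf had 25.9 and 22.0 CPM in starved knockout and 4.07 and 5.06 CPM in starved wild-type libraries (2.39 ± 0.25, adjusted p = 0.000251).

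Without either rich knockout library, and also in a fit of the 4 starved libraries alone, 31 lysosomal genes passed, 9 higher and 22 lower. In these fits 80.2% of all genes passed without replicate 1, 80.3% without replicate 2 and 82.4% in the starved libraries alone, with 39.6% to 40.6% higher and 40.6% to 41.8% lower. The call of Npc1 and that of Tpp1 were lost without any library outside the rich knockout pair, that of Naglu without any starved library, and that of Galc without either starved knockout library or the first starved wild-type library. The other 15 calls held without any 1 library.

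In rich medium 15 of 38 lysosomal genes differed, 5 higher and 10 lower in the knockout (13.2% and 26.3%, against 23.4% and 20.7% of all genes), with a median log2 fold change of -0.38 for these genes and 0.00 for all genes. This comparison and that of the starved cells use different libraries. Of the genes, 9 were lower and 5 higher in the knockout in both media, and the 15th, Fuca1, was lower in rich medium and did not pass after starvation (-0.17 ± 0.17, adjusted p = 0.421). Gm2a had 2.22 and 3.57 CPM in rich knockout libraries, against 42.1 and 42.6 CPM in rich wild-type libraries (-3.80 ± 0.24, adjusted p = 4e-05). Manba had 0.984 and 1.48 CPM in knockout and 12.3 and 12.2 CPM in wild-type libraries (-3.23 ± 0.29, adjusted p = 0.000173). Neu1 had 10.3 and 11.5 CPM in knockout and 33.6 and 36.2 CPM in wild-type libraries (-1.67 ± 0.14, adjusted p = 0.000148). In these 3 genes both knockout libraries were far below both wild-type libraries. Fuca1 (-1.17 ± 0.17), Man2b1 (-1.01 ± 0.17), Idua (-1.03 ± 0.22), Arsb (-0.86 ± 0.23), Asah1 (-0.81 ± 0.15), Mcoln1 (-0.78 ± 0.23, adjusted p = 0.0321) and Acp2 (-0.55 ± 0.12, adjusted p = 0.0101) were lower as well, so that 4 of the 5 glycoprotein enzymes were. Dgkq, which overlaps Idua, had 9.23 and 15.3 CPM in rich knockout and 23.1 and 20.5 CPM in rich wild-type libraries. Ddb2, which overlaps Acp2, had 10.8 and 9.55 CPM in rich knockout and 19.2 and 20.6 CPM in rich wild-type libraries. Both overlapping genes were thus lower in the knockout too.

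Cln3 had 7.38 and 10.7 CPM in rich knockout libraries, against 0.744 and 0.963 CPM in rich wild-type libraries, where it had 16 and 27 counts (3.40 ± 0.27, adjusted p = 0.000108). Gnptab had 254 and 168 CPM in knockout and 48.2 and 42.9 CPM in wild-type libraries (2.21 ± 0.23, adjusted p = 0.000353). M6pr had 234 and 229 CPM in knockout and 131 and 134 CPM in wild-type libraries (0.81 ± 0.11, adjusted p = 0.00114). These 3 genes were higher in each knockout library, and M6pr was nearly equal in the 2 replicates. Npc1 also passed as higher (0.75 ± 0.14), as did Gla, with 33.1 and 41.1 CPM in knockout and 16.9 and 14.2 CPM in wild-type libraries (1.26 ± 0.18, adjusted p = 0.00148). Gla lies on the X chromosome, as do Ids and Lamp2, which did not pass in rich medium (-0.14 ± 0.16 and 0.84 ± 0.37). Over 452 X-linked genes the median log2 fold change of knockout over wild type was 0.19 after starvation and 0.37 in rich medium, against -0.03 after starvation and -0.02 in rich medium over 12416 autosomal genes. Of the 23 genes that did not pass, log2 fold changes ran from -0.88 for Galns, a sulfatase of keratan sulfate, to 0.84 for Lamp2. Rich knockout libraries lay below rich wild-type libraries for 19 lysosomal genes and above them for 11, where 35.8% and 34.1% of all genes did so. Among the related lists 4 of 17 proton pump genes were lower and 1 higher, 2 of 11 cathepsins and related proteases went each way, 3 of 14 further enzymes were lower and 2 higher, 5 of 20 further targeting and membrane genes were lower and 3 higher, and 0 of 4 TFEB family genes were lower and 2 higher.

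Without replicate 1 of the rich knockout group 11 lysosomal genes were higher and 17 lower in rich medium, and without replicate 2 the counts were 11 and 20. Of all genes 32.3% were higher and 33.6% lower without replicate 1, and 34.3% and 38.4% without replicate 2. In a fit of the 4 rich libraries alone 5 lysosomal genes were higher and 5 lower (13.2% each, against 13.2% and 11.4% of all genes). With limma-voom quality weights 5 were higher and 7 lower (13.2% and 18.4%, against 15.9% and 9.27% of all genes). The value of Mcoln1 was -0.50 without replicate 1 and -1.25 without replicate 2, and its call was lost without any of the other 6 libraries. Arsb stood at -1.29 and -0.55 in those fits, and its call was lost without either rich wild-type library, as was that of Acp2. The call of Idua was lost without rich wild-type replicate 1 and that of Npc1 without replicate 2.

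**Figure D5:**
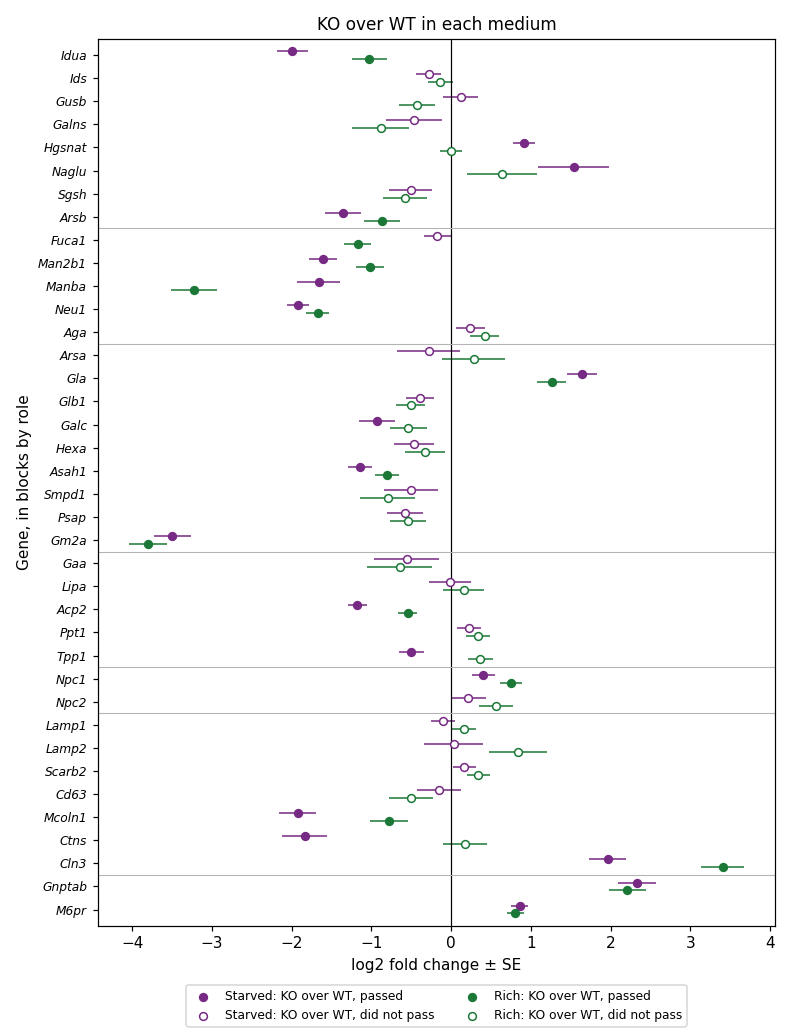
The log2 fold change of knockout over wild type, with its SE, for each lysosomal gene in starved (purple) and rich (green) cells, filled where the adjusted p was under 0.05. Gm2a, Manba and Neu1 lie far to the left and Cln3 and Gnptab far to the right in both media, while Ctns, Galc, Hgsnat, Naglu and Tpp1 are filled for starved cells alone.

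Over the 5 comparisons 21 of the 38 lysosomal genes passed in at least 1, and 17 passed in none, while 73.5% of all genes passed in at least 1. This count rests on the rich knockout pair: without replicate 1 of it all 38 passed in at least 1 comparison, as did 94.6% of all genes, and without replicate 2 all 38 and 95.6%. In the fit of 8 libraries the 17 include 4 of the 7 membrane proteins, Lamp1, Lamp2, Scarb2 and Cd63, each of which passed for wild-type starvation without either rich knockout library. Scarb2, the LIMP-2 receptor that carries the enzyme of glucosylceramide breakdown to the lysosome, had 41.0 and 40.6 CPM in starved and 33.6 and 40.9 CPM in rich knockout libraries, against 35.9 and 37.0 CPM in starved and 29.6 and 29.4 CPM in rich wild-type libraries. All 8 values of Scarb2 lay between 29.4 and 41.0 CPM. Lamp1 ranged from 767 to 999 CPM, with the highest value in replicate 1 of the rich knockout group. Smpd1, the acid sphingomyelinase, had 25.8 and 23.9 CPM in starved and 11.6 and 27.7 CPM in rich knockout libraries, against 35.6 and 34.9 CPM in starved and 34.4 and 35.2 CPM in rich wild-type libraries. All 4 knockout values were below all 4 wild-type values, and neither comparison of genotypes passed (-0.50 ± 0.34, adjusted p = 0.245 starved and -0.80 ± 0.34, adjusted p = 0.0994 in rich medium). Ids, the iduronate sulfatase, had the narrow range of log2 values from -0.33 to -0.14 over the 5 comparisons. The widest range among the 17 was that of Lamp2, whose log2 values ran from -1.28 for knockout starvation to 0.84 for knockout over wild type in rich medium, both of which use the rich knockout pair.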

How the data were processed

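RNA of 8 libraries in 4 groups of 2 was analysed from a deposited table of raw read counts for 31055 RefSeq transcripts (mm9), which the authors made with TopHat2 2.0.9 and bedtools, per the submitters' processing notes. The sources used here do not state the use of strand or the treatment of reads with several matches. Where a symbol had several transcripts, the 1 with the most counts over all libraries stood for it. Another 4 libraries, H3R17me2 ChIP-seq and its inputs, were not analysed here. Genes were filtered with filterByExpr (13882 tested), scaled by TMM and tested with edgeR 4.0.16 (R 4.3.3). Its quasi-likelihood test was run on all 8 libraries with a mean per group, at an adjusted p threshold of 0.05. Log2 fold changes are given with an SE, taken as the absolute log2 fold change over the square root of the F statistic. CPM are counts scaled to the TMM-adjusted library size. The biological coefficient of variation was 18.5%.

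The members and the gene lists were chosen with earlier results of these data known. All 38 members could be named, those past the threshold first, and at most 2 genes per related list and comparison, by smallest p. The test was tried on simulated data with known changes first. In these simulations, where few genes changed, it recovered 13.4% to 20.9% of 2-fold changes in the comparisons of 2 groups. At 4-fold it recovered 69.7% to 86.4% of them. For the difference between responses it recovered 0 of 67 changes at 2-fold and 50% at 4-fold. False calls were 5 of 65 calls for wild-type starvation and 0 of 61 for knockout starvation. They were 5 of 71 for the genotypes in rich medium, 10 of 82 for the starved genotypes and 3 of 36 for the difference. Alternatives were other scalings and filters, DESeq2 1.42.0, limma 3.58.1 voom with quality weights, a replicate block, summed transcripts, the 4 libraries compared alone, and each library left out in turn. Gene overlaps and promoter sequences came from RefSeq tables of GRCm38.p6. 3 counts were taken as the floor of detection, which covers counting error only.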

Additional observations from a re-analysis of the deposited data

Results flagged for a closer look

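The starvation response of 6 of the 38 lysosomal genes differed between the genotypes by a test of the difference itself (knockout response minus wild-type response, edgeR quasi-likelihood test, adjusted over 13882 genes). That is 15.8% of the lysosomal genes, where 13.3% of all genes passed, so the share is close to that of all genes. Ctns, the cystine exporter, differed by -2.01 ± 0.39, adjusted p = 0.0187: it rose in starved wild-type libraries and lay between the rich values in starved knockout libraries. Cln3 differed by -1.44 ± 0.35, adjusted p = 0.0397, and both of its starved libraries were above the rich ones in either genotype. Tpp1 differed by -0.86 ± 0.22, adjusted p = 0.0449, with starved libraries above the rich ones in the wild type and a knockout response that did not pass. In the other direction, Hgsnat differed by 0.92 ± 0.20, adjusted p = 0.0256, Fuca1 by 1.00 ± 0.24, adjusted p = 0.0387 and Manba by 1.57 ± 0.40, adjusted p = 0.0435. For these 3 genes starved libraries were below the rich ones in the wild type. The knockout response of Manba rests on low counts, 29 and 40 in starved and 8 and 32 in rich libraries. Each difference lost its call when any 1 of the 6 libraries outside the rich knockout pair was left out. With all 8 libraries kept, only Ctns and Hgsnat held their call in every alternative. With 2 libraries a group, no library could be tested as standing apart from its group.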

How the results depend on the processing

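No called value changed direction under any alternative. Other scalings (RLE factors or total counts), filters and summed transcripts kept each count of lysosomal genes called to at most a 1.5-fold change, but with total counts the difference between responses had 1 higher and 3 lower, against 3 and 3. Single calls of that difference were less stable. Tpp1 lost its call with RLE factors, no filter, a stricter filter and summed transcripts. Fuca1 and Manba lost theirs with total counts, limma-voom and the replicate block. Cln3 lost its call with limma-voom and the replicate block. Total counts moved the median of all genes by -0.12 for knockout over wild type after starvation. DESeq2 called 2880 genes for the difference between responses, against 1853 in edgeR. With limma-voom quality weights wild-type starvation gave 32 lysosomal genes and 9400 of all genes, knockout starvation 2 and 1174, the genotypes in rich medium 12 and 3498, and the starved genotypes 30 and 11211. In fits of the 4 libraries compared, wild-type starvation gave 33 lysosomal genes and 9332 of all genes, knockout starvation 0 and 0 (5 and 2803 at an unadjusted p under 0.05), the genotypes in rich medium 10 and 3245, and the starved genotypes 31 and 11038. The difference needs all 8 libraries. Same-numbered samples did not deviate together (correlations from -0.03 to 0.06), and with the replicate block 14, 3, 15, 18 and 3 lysosomal genes passed for wild-type starvation, knockout starvation, rich medium, starved cells and the difference. These were 36.8%, 7.89%, 39.5%, 47.4% and 7.89% of the lysosomal genes, against 29.7%, 15.2%, 41.8%, 53% and 10.7% of all genes.

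Leaving out 1 library in turn gave 8 to 35 lysosomal genes and 1579 to 9561 of all genes for wild-type starvation, 0 to 30 and 265 to 8410 for knockout starvation, 11 to 31 and 3370 to 10336 for the genotypes in rich medium, 15 to 31 and 5127 to 11435 for the starved genotypes, and 0 to 28 and 452 to 8020 for the difference. The highest counts came without a rich knockout library. The cause of the shifts under other tools and fits was not tested.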
